A study of Mus musculus with 65 samples.

Results

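Sall1, Spi1, Irf8, Runx1, Mef2c, Ikzf1 and Cebpa are the 7 transcription factors described here, taken by symbol from a count table of 50686 mouse genes, of which 50376 carry a symbol. All 7 were found under 1 Ensembl identifier each, and all 7 passed the filter on low counts in the depletion comparison, Spi1 and Ikzf1 only through the CD mice. Bulk RNA was sequenced from the retinas of 65 adult C57BL/6J mice in 16 groups, and the question was how these regulators behaved when retinal microglia were removed and when they came back. Microglia were removed with a diet containing PLX5622, an inhibitor of the receptor CSF1R on which microglia depend for survival.

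The control diet group (CD, labelled vehicle) had 5 mice. The depletion groups DEP2, DEP5, DEP7, DEP10, DEP14 and DEP21 were taken after 2, 5, 7, 10, 14 and 21 days on PLX5622, with 3 mice in DEP5 and 4 in each of the others. The repopulation groups REPOP3, REPOP5, REPOP7, REPOP10, REPOP14 and REPOP21 were taken 3, 5, 7, 10, 14 and 21 days after the return from PLX5622 to control diet, and REPOP60 after 2 months. REPOP7 had 6 mice and the other repopulation groups had 4 each. LPSCD (3 mice, vehicle and lipopolysaccharide) and LPSREPOP (4 mice) were the groups challenged with lipopolysaccharide (LPS). The labels give the treatment of LPSREPOP as PLX5622 and LPS, and the study's methods describe these retinas as repopulated. Neither gives the time of repopulation of LPSREPOP. Every mouse was adult, of the same strain and without a transgene according to the labels, and total RNA came from homogenate of the whole retina, so that fewer microglia and less RNA per microglial cell cannot be told apart.

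These proteins act at different levels of myeloid gene regulation. PU.1 (encoded by Spi1) and RUNX1 establish the myeloid lineage, C/EBP alpha (Cebpa) and Ikaros (Ikzf1) act in blood cell development, IRF8 works with PU.1 on composite DNA elements in macrophages, and SALL1 maintains the microglial state in the adult brain. MEF2C is active in microglia and also in neurons, where it controls synapse and activity genes.

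On the mm10 assembly (GRCm38, GENCODE M21 annotation) Sall1 (ENSMUSG00000031665) lies on chromosome 8 from 89027235 to 89044162, minus strand, and Irf8 (ENSMUSG00000041515) on the same chromosome from 120736358 to 120756694, plus strand. Spi1 (ENSMUSG00000002111) lies on chromosome 2 from 91082390 to 91115756, Mef2c (ENSMUSG00000005583) on chromosome 13 from 83504034 to 83667080, Ikzf1 (ENSMUSG00000018654) on chromosome 11 from 11685003 to 11772926 and Cebpa (ENSMUSG00000034957) on chromosome 7 from 35119293 to 35121928, all on the plus strand. Runx1 (ENSMUSG00000022952) lies on the minus strand of chromosome 16 from 92601466 to 92826149. Exons of Runx1 overlap those of the antisense gene Gm26626, and exons of Cebpa overlap those of the antisense gene Gm45091. The strand setting of the counting is not given in the sources used here, so reads of these pairs may not be separated.

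The 250 bases before the annotated start of Sall1, Irf8 and Mef2c are shown because Sall1 was called lower in the depleted retina, Irf8 had a difference of similar size that was not called, and Mef2c was kept. They are RefSeq sequences on GRCm38.p6, at chr8:89044163-89044412 on the minus strand for Sall1, chr8:120736108-120736357 on the plus strand for Irf8 and chr13:83503784-83504033 on the plus strand for Mef2c, each read 5′ to 3′ in the direction of the gene. Capitals mark a match to 1 of 4 motifs, searched on both strands.
Sall1: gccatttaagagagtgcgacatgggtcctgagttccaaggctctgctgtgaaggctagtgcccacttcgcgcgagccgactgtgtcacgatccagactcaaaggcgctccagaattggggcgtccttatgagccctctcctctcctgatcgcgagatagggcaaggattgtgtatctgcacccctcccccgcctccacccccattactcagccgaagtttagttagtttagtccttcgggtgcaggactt
Irf8: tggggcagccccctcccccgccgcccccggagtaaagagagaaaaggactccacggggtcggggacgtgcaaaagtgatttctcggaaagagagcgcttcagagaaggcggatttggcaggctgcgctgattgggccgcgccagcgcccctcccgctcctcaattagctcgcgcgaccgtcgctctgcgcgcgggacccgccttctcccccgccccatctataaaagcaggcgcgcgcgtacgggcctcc
Mef2c: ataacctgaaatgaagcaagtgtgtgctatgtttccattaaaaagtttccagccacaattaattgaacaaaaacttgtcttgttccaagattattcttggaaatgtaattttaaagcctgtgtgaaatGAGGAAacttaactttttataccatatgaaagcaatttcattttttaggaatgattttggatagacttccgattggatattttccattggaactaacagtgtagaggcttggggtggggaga
The motifs were GAGGAA for PU.1, GAAA and GAAA with any 2 bases between them for IRF, TGTGGT for RUNX and CTA and TAG with any 4 bases between them for MEF2, which occur in 23.3%, 2.98%, 14% and 3.2% of 32851 promoter windows of this length. The single match in the 3 windows was a PU.1 motif 122 bases before the start of Mef2c. The GC content of the windows was 56.4% for Sall1, 67.2% for Irf8 and 33.6% for Mef2c. Among the other windows of the members, a PU.1 motif lay 46 bases before a second start of Runx1 and 186 bases before a second start of Mef2c, and no match was found in the windows of Ikzf1 and Cebpa. Spi1 had no entry in the sequence table. A match here is a run of letters, not a shown binding site.

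Libraries held between 5106429 and 8760443 counted reads. Levels are given as CPM, counts scaled to TMM library sizes, and 3 reads, the floor used here, equal 0.342 to 0.587 CPM depending on the library. This floor covers counting error only. Titles of 39 mice end in RE and those of 26 in re, and the first principal component over 12346 genes carried 55.9% of the variance and separated these suffixes without overlap. CD had 3 RE and 2 re mice, DEP5 had only RE mice, REPOP7 had 3 of each, REPOP60, LPSCD and LPSREPOP had only re mice, and each remaining group had 3 RE mice and 1 re mouse. The labels do not say what the suffix stands for. It entered the edgeR model as a covariate wherever a comparison held both kinds. Rod, cone, bipolar, amacrine, ganglion cell and Müller glia markers were detected in every group, as the label retina requires. Each mouse counts as a replicate, and a p-value here sets a difference between groups against the spread between mice of a group. In the pooled comparisons that spread also holds differences between the pooled days.

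In the retina on control diet, Mef2c was by far the most abundant of the 7 factors. Per transcript length and on the deposited FPKM scale, mean levels in CD were 29.1 for Mef2c, 0.708 for Cebpa, 0.587 for Irf8, 0.327 for Sall1, 0.131 for Runx1, 0.0969 for Spi1 and 0.0655 for Ikzf1. In counts, the 5 CD mice together held 6386 reads of Mef2c, 82 of Irf8, 74 of Sall1, 65 of Cebpa, 25 of Runx1, 14 of Ikzf1 and 12 of Spi1. All members but Mef2c were therefore measured from few reads, and for Spi1 and Ikzf1 a single mouse of CD had at most 6 and 5 reads.

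**Figure D1:**
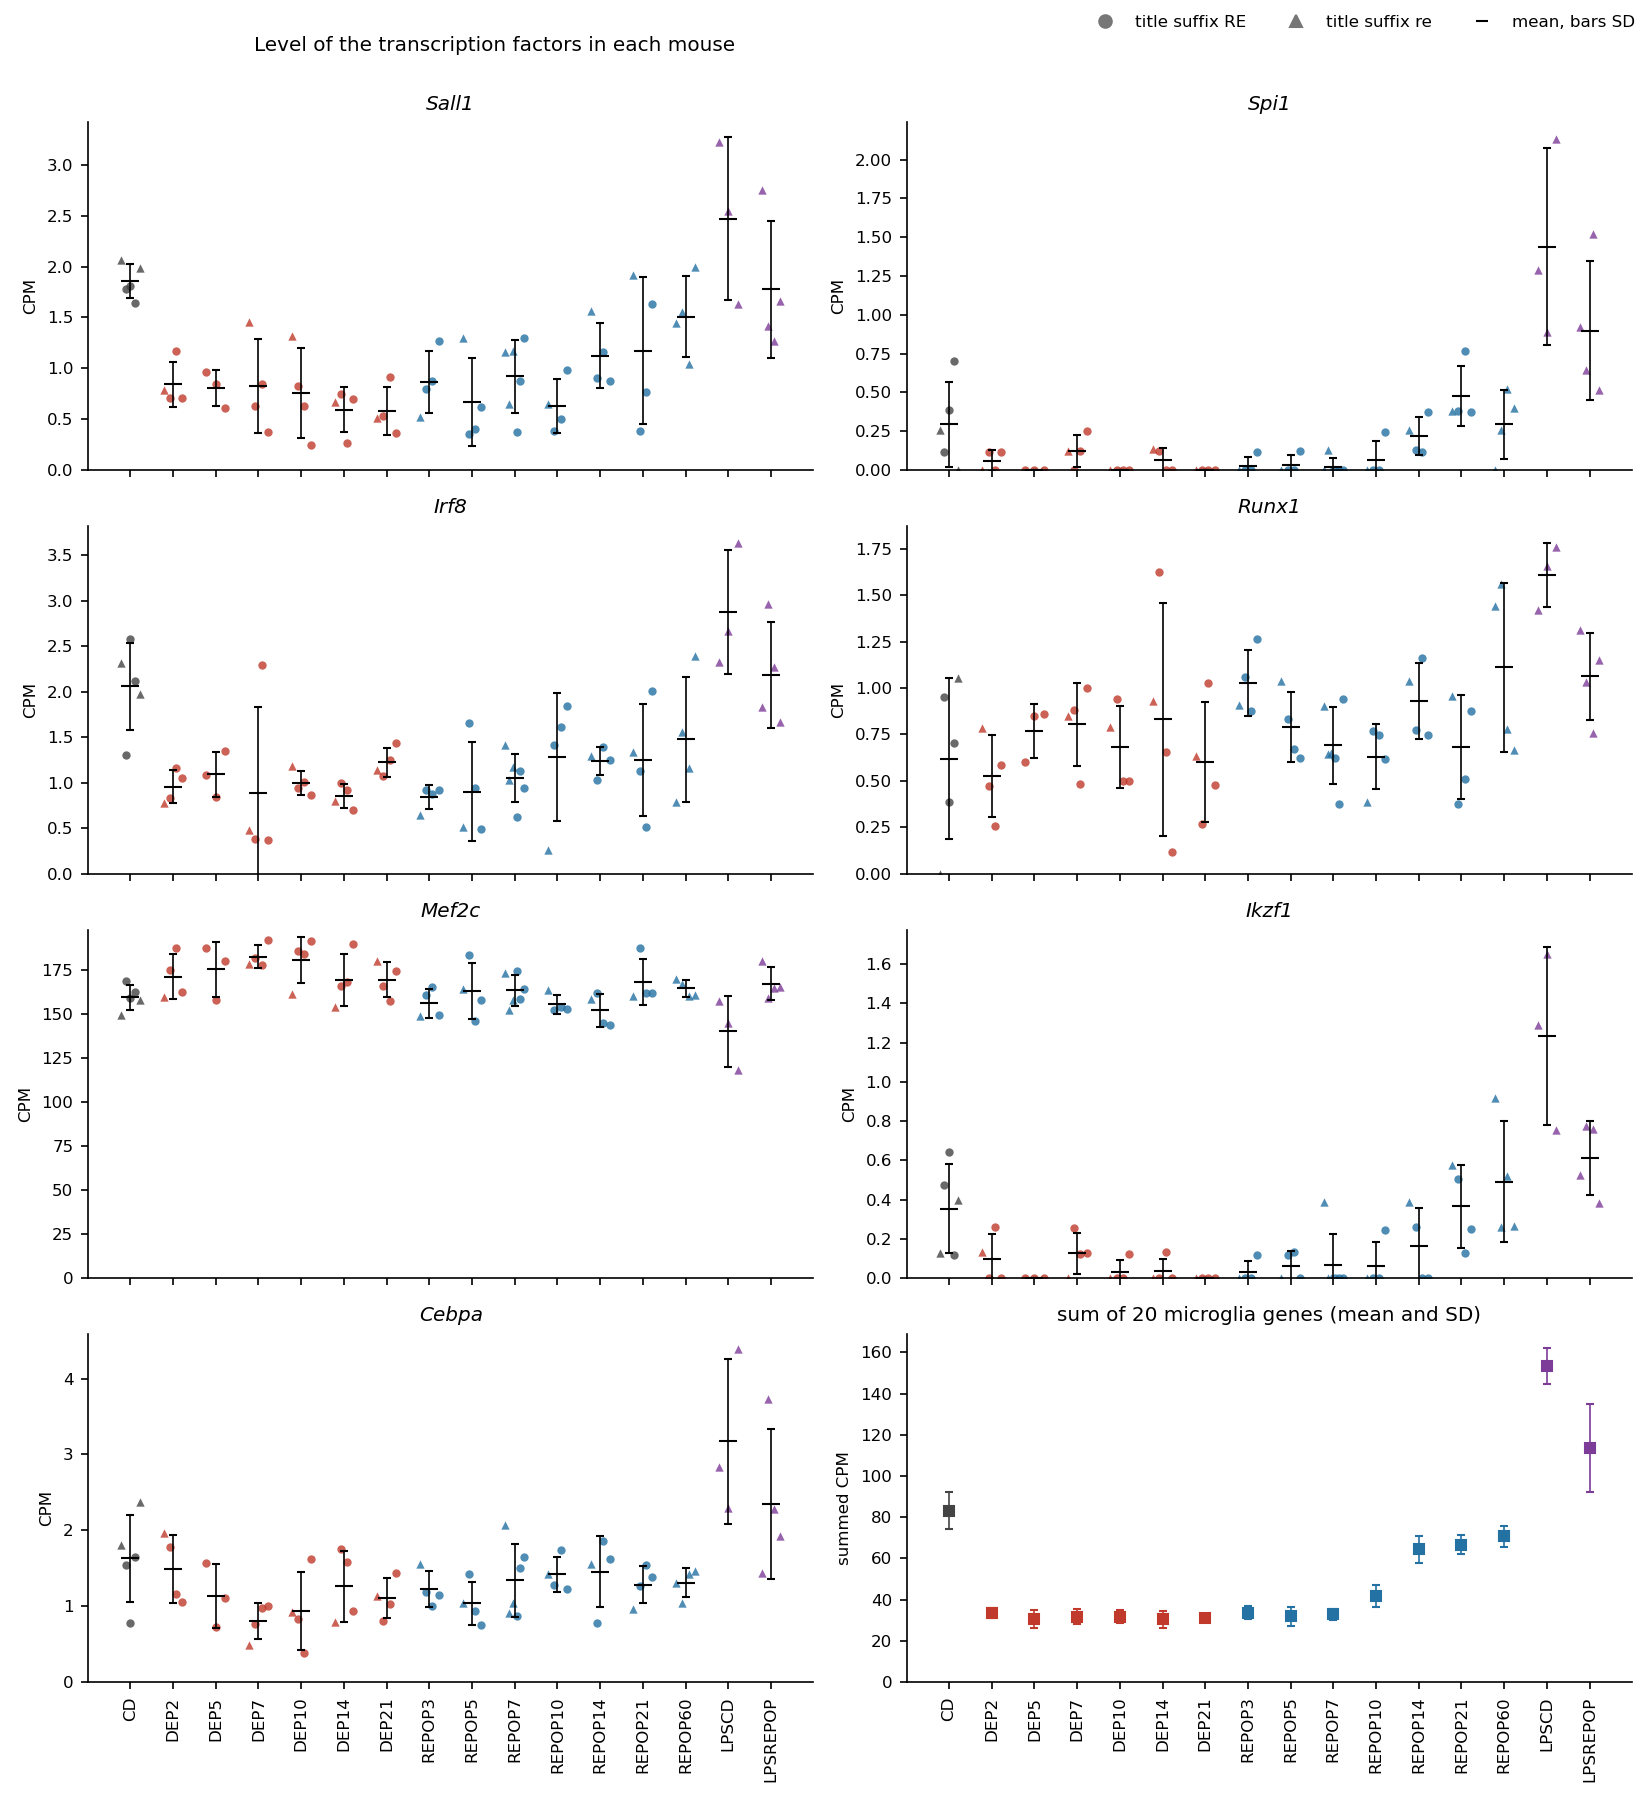
CPM of each transcription factor in each mouse (points; circles for titles ending in RE, triangles for re) by group, with the group mean and SD as bars, and the summed CPM of 20 microglia genes in the last panel. Sall1 lay below the CD mice in all 19 mice of DEP5 to DEP21, Spi1 and Ikzf1 were at 0 in 14 of these 19 mice, and Mef2c stayed between 154 and 192 CPM.

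Depletion was followed by pooling DEP5, DEP7, DEP10, DEP14 and DEP21 (19 mice) against CD (5 mice). By edgeR's quasi-likelihood test over 22776 genes, with differentially expressed genes (DEGs) defined by FDR under 0.01 and a change beyond 1 on the log2 scale, 41 genes or 0.18% of those tested were DEGs. Of the 7 factors, 1 was a DEG, Sall1. A member was called kept if the 95% interval of its log2 fold change lay wholly above -1, which held for 2 members, Runx1 and Mef2c. The other 4, Spi1, Irf8, Ikzf1 and Cebpa, met neither rule and are unresolved.

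Sall1, which codes for the zinc finger protein that keeps microglia in their resting identity, fell in the depleted retina. The 5 CD mice had 2.06, 1.78, 1.81, 1.64 and 1.98 CPM. DEP5 mice had 0.962, 0.849 and 0.613 CPM, DEP7 mice 1.45, 0.632, 0.848 and 0.375 CPM, and DEP10 mice 1.32, 0.824, 0.628 and 0.249 CPM. DEP14 mice had 0.664, 0.749, 0.263 and 0.702 CPM and DEP21 mice 0.506, 0.535, 0.914 and 0.359 CPM. All 19 depleted mice were below all 5 CD mice, with no overlap, as for 0.14% of all genes tested. The mean fell from 1.86 ± 0.167 CPM (SD, n = 5) to 0.707 ± 0.318 CPM (SD, n = 19), which is 38.1% of the CD mean, 36.3% among RE mice and 48.7% among re mice. The log2 fold change was -1.28 (SE 0.23, 95% interval -1.75 to -0.81, edgeR FDR = 0.00227). A two-sided exact permutation test of the mean CPM of the mice gave p = 2.35e-05, the smallest this design allows, and p = 0.00123 among RE mice. The call did not hold without CD replicate 2, 3 or 4 in turn, where the FDR was 0.0227, 0.0205 and 0.018. The log2 fold change was then -1.241, -1.238 and -1.277. Among RE mice alone the FDR was 0.0185 with a log2 fold change of -1.43.

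The fall of Sall1 was smaller than that of most genes in a list of 20 microglia genes. For 16 of them the 95% interval of the log2 fold change lay wholly below that of Sall1, and the other 4, among them Csf1r, Olfml3 and Aif1, fell by less on that scale. Cx3cr1, the fractalkine receptor of microglia, had 159 reads in the 5 CD mice and 1 read in the 19 depleted mice, and Tmem119, a microglial surface protein, had 65 reads and 1 read. Siglech, a microglial lectin, had 44 reads in CD and 0 in the depleted mice. With 3 reads over the group as the floor this is 56.5-fold lower, the counting error of CD left out. Sall1 kept 109 reads in the same 19 mice. The 95% interval of its log2 fold change, -1.75 to -0.81, lay above those of Cx3cr1 (-8.27 to -6.78) and Tmem119 (-6.93 to -5.42) and overlapped that of Csf1r (-1.08 to -0.69).

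Irf8, the partner of PU.1 in macrophages, was lower by nearly as much as Sall1 but was not a DEG. The CD mice had 2.32, 1.31, 2.58, 2.11 and 1.98 CPM. The depleted mice ranged from 0.375 to 2.30 CPM, and 16 of 19 were below the CD range. From a CD mean of 2.06 ± 0.478 CPM (SD, n = 5), the depleted mean was 1.01 ± 0.432 CPM (SD, n = 19), or 48.9% of CD, 51.8% among RE mice and 41.9% among re mice. The log2 fold change was -1.03 (SE 0.25, 95% interval -1.52 to -0.53, edgeR FDR = 0.0713), and an exact permutation test of the single gene gave p = 0.000518, or p = 0.0098 among RE mice. DEP7 replicate 3 stood apart, with 2.30 CPM against 0.375 to 0.484 CPM in the other 3 DEP7 mice.

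Spi1, which codes for the lineage factor PU.1, was close to undetected after depletion. The CD mice had 0.258, 0.119, 0.387, 0.705 and 0 CPM, or 2, 1, 3, 6 and 0 reads. All 3 DEP5 mice, all 4 DEP10 mice and all 4 DEP21 mice had 0 reads, and 6 reads were found in the 19 depleted mice together. The level per pooled read was 13% of CD (exact 95% interval 3.99% to 37.3%, counting error only). DEP21 with 0 reads was 3.23-fold lower than CD with 3 reads over the group as the floor. Its exact 95% interval reached 44.6% of CD. On the log2 scale the change was -2.62 (SE 0.65, edgeR FDR = 0.105), and the exact permutation test gave p = 0.00313 in all mice and p = 0.0049 among RE mice. CD and depleted mice overlapped, since CD replicate 2M was also at 0.

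Ikzf1, coding for Ikaros, was near the floor in the same way. The CD mice had 1, 4, 5, 1 and 3 reads, and 14 of the 19 depleted mice had 0 reads, with 6 reads in all. The pooled level was 11.1% of CD (exact 95% interval 3.5% to 30.8%, counting error only). By edgeR the log2 fold change was -2.89 (SE 0.59, edgeR FDR = 0.0114), just outside the FDR threshold, and the exact permutation test gave p = 0.000706 in all mice and p = 0.00735 among RE mice. DEP5 and DEP21 had 0 reads, 2.93-fold and 3.77-fold lower than CD with 3 reads over the group as the floor. Their exact 95% intervals reached 48.0% and 37.3% of CD.

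Cebpa, coding for C/EBP alpha of the granulocyte and monocyte lineage, had 1.81, 1.55, 0.774, 1.64 and 2.38 CPM in the CD mice and from 0.377 to 1.75 CPM in the depleted mice, 4 of which lay below the CD range. The CD mean was 1.63 ± 0.577 CPM (SD, n = 5) and the depleted mean 1.04 ± 0.386 CPM (SD, n = 19). This is 64.0% of CD in all mice, 83.1% among RE mice and 39.9% among re mice. Its log2 fold change of -0.63 (SE 0.25, edgeR FDR = 0.678) did not pass, and the exact permutation p was 0.0127 in all mice and 0.445 among RE mice. The size of the difference therefore moved with the title suffix, and its part in the result was not tested.

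Runx1, which codes for a subunit of the core binding factor in blood development, met the rule for kept. The CD mice had 0, 0.951, 0.387, 0.705 and 1.06 CPM and the depleted mice 0.117 to 1.62 CPM, so the groups overlapped. The depleted mean of 0.736 ± 0.330 CPM (SD, n = 19) was 119% of the CD mean of 0.620 ± 0.432 CPM (SD, n = 5), and the log2 fold change was 0.24 (95% interval -0.54 to 1.02, edgeR FDR = 0.934). Without CD replicate 1, the mouse with 0 reads, the value was -0.06. On the deposited FPKM scale the depleted mean of Runx1 was 85.3% of CD. Because the direction differed between CPM and FPKM, neither a rise nor a fall of Runx1 is read from these values.

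Mef2c, the most abundant member, was kept. The CD mice had 149, 169, 159, 162 and 158 CPM, and the depleted mice ranged from 154 to 192 CPM, with 12 of 19 above the CD range. The CD mean was 159 ± 7.15 CPM (SD, n = 5) and the depleted mean 175.5 ± 12.2 CPM (SD, n = 19), 110% of CD on the CPM scale and 94.1% on the deposited FPKM scale. Its log2 fold change of 0.12 (SE 0.05, 95% interval 0.03 to 0.22, edgeR FDR = 0.665) did not pass, and the exact permutation p was 0.011 in all mice and 0.0723 among RE mice. Because the direction differed between CPM and FPKM, no rise or fall is read from it.

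Each depletion time was also compared with CD alone, with less precision and with the order of the members varying between times. The log2 fold change of Sall1 against CD lay between -1.08 and -1.62 from DEP2 to DEP21, and that of Irf8 between -0.72 and -1.25. None of the 7 members was a DEG in any of these comparisons by edgeR, where DEGs made up 0.0501% of all genes tested at 2 days, 0.0345% at 5 days, 0.0625% at 7 days, 0.0585% at 10 days, 0.0419% at 14 days and 0.0884% at 21 days. In each of them 4 or 5 of 7 members had an unadjusted p under 0.05, where all genes gave 4.47%, 4.14%, 8.2%, 6.38%, 4.74% and 4.14% in the same order. The members counted changed between times and did not all fall. At 7 and 10 days they included Mef2c, which was higher, with log2 fold changes of 0.185 and 0.158. All these comparisons share the same CD mice, so the counts are not independent. DESeq2 also called 0 members in each. Spi1 and Ikzf1, counted at 5, 10 and 21 days, passed the gene filter there only through the CD mice, as did Ikzf1 at 14 days. The members were also chosen with earlier results of these data known, so their count beside the share of all genes is no test. DEP2 was already low, with Sall1 at 0.785, 0.712, 1.17 and 0.703 CPM after 2 days, and with all 4 mice below the CD range, as for 0.618% of all genes.

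**Figure D2:**
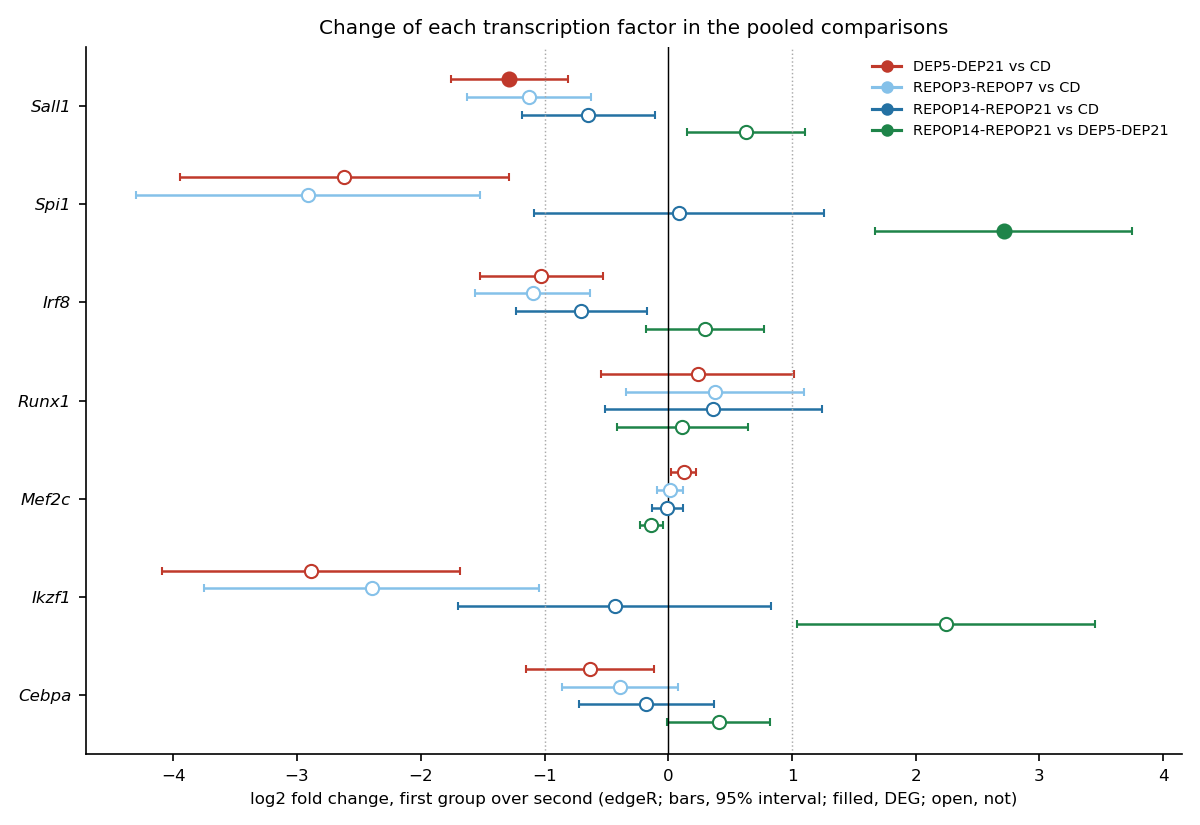
Log2 fold change of each factor with its 95% interval by edgeR in 4 pooled comparisons (colours), with filled points for DEGs and dotted lines at -1 and 1. Sall1 was a DEG in depletion at -1.28 and Spi1 in late repopulation against depletion at 2.71, while Mef2c stayed within 0.14 of 0.

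None of the relatives of these factors in the same gene families, which bind like DNA sequences, was called. In depletion against CD, 25 of 28 relatives in 7 families were tested by edgeR and 0 were DEGs, beside the 0.18% of all genes, and 1 had an unadjusted p under 0.05, beside 6.47%. The median log2 fold change was -0.05 over the 9 IRF genes, 0.08 over the 5 Ikaros genes and 0.05 over the 4 MEF2 genes, and 0 over all genes. Sall2 was at 96.3 CPM in CD and 89.1 CPM in depletion, a log2 fold change of -0.10 (SE 0.05, edgeR FDR = 0.766), and Sall3 was at 12.8 and 12.5 CPM. In the IRF family, the relatives with the smallest FDR were Irf7, an interferon-induced factor, at -0.15 and Irf1 at 0.14 on the log2 scale. Runx2 was at -0.21 and Cbfb, the shared partner subunit of RUNX proteins, at 0.07. Cebpd, an acute phase member of the C/EBP family, was at 0.29 (SE 0.14, edgeR FDR = 0.753), and Spib, the closest relative of Spi1 tested, was at 0.89 (SE 0.65) from 0.102 CPM in CD.

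Other macrophage regulators showed no DEG either, with 12 of 15 genes tested by edgeR, 1 at an unadjusted p under 0.05 and a median log2 fold change of 0.01. Maf, which acts in macrophage maturation, was at 0.02, from 26.1 CPM in CD. Stat3 and Tal1 had the values 0.14 (SE 0.05, edgeR FDR = 0.653) and -0.62 (SE 0.44, edgeR FDR = 0.838). Markers of perivascular macrophages, another resident population of the retina, summed to 16.8 to 23.5 CPM in the CD mice and to 16.7 to 25.4 CPM in the depleted mice, and 0 of the 4 tested were DEGs. Of that list, Cd163 was at 0.0258 CPM in CD, F13a1 and Pf4 were at 0, and Lyve1 (14.4 CPM) and Stab1 (4.97 CPM), which endothelium also expresses, made up most of the sum.

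Among genes that these factors are known to control, several fell by more on the log2 scale than any factor did. In depletion against CD 0.18% of all genes tested were DEGs. Of 14 PU.1 and IRF8 target genes, 13 were tested and 5 were DEGs by edgeR, all lower, with a median log2 fold change of -1.56. They were Cx3cr1 at -7.53 (SE 0.37), the protease Ctss at -5.95 (SE 0.28), the integrin Itgam at -4.13 (SE 0.48), the Fc receptor Fcgr3 at -3.64 (SE 0.56) and the purinergic receptor P2ry12 at -3.17 (SE 0.33). Csf1r, the receptor that PLX5622 inhibits, passed the FDR threshold (edgeR FDR = 8.41e-08) but not the fold threshold, with 17.1 CPM in CD, 8.96 CPM in depletion and a log2 fold change of -0.89. Of 6 genes known to depend on SALL1, 5 were DEGs and all were lower, namely Siglech, Tmem119, P2ry13 at -4.24, P2ry12 and Gpr34 at -2.63, with a median of -3.70. The last, the sugar transporter Slc2a5, was at -1.54 (SE 0.50, edgeR FDR = 0.456). In a list of 20 microglia genes 16 were DEGs and lower, with a median of -4.55, and the medians were the same with the genes at 0 set to their bounds. These lists overlap and are not separate results. Cx3cr1, Ctss, Itgam, P2ry12 and all 5 SALL1-dependent DEGs are also in the microglia list, and P2ry12 is in both target lists. Cx3cr1, Tmem119 and Siglech passed the gene filter only through the CD mice. A link between a factor and its target genes was not tested. The summed CPM of the microglia list ranged from 76.4 to 98.6 in CD and from 24.8 to 35.4 in depletion, and what was left included Csf1r and Olfml3, at 8.96 and 4.98 CPM.

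**Figure D3:**
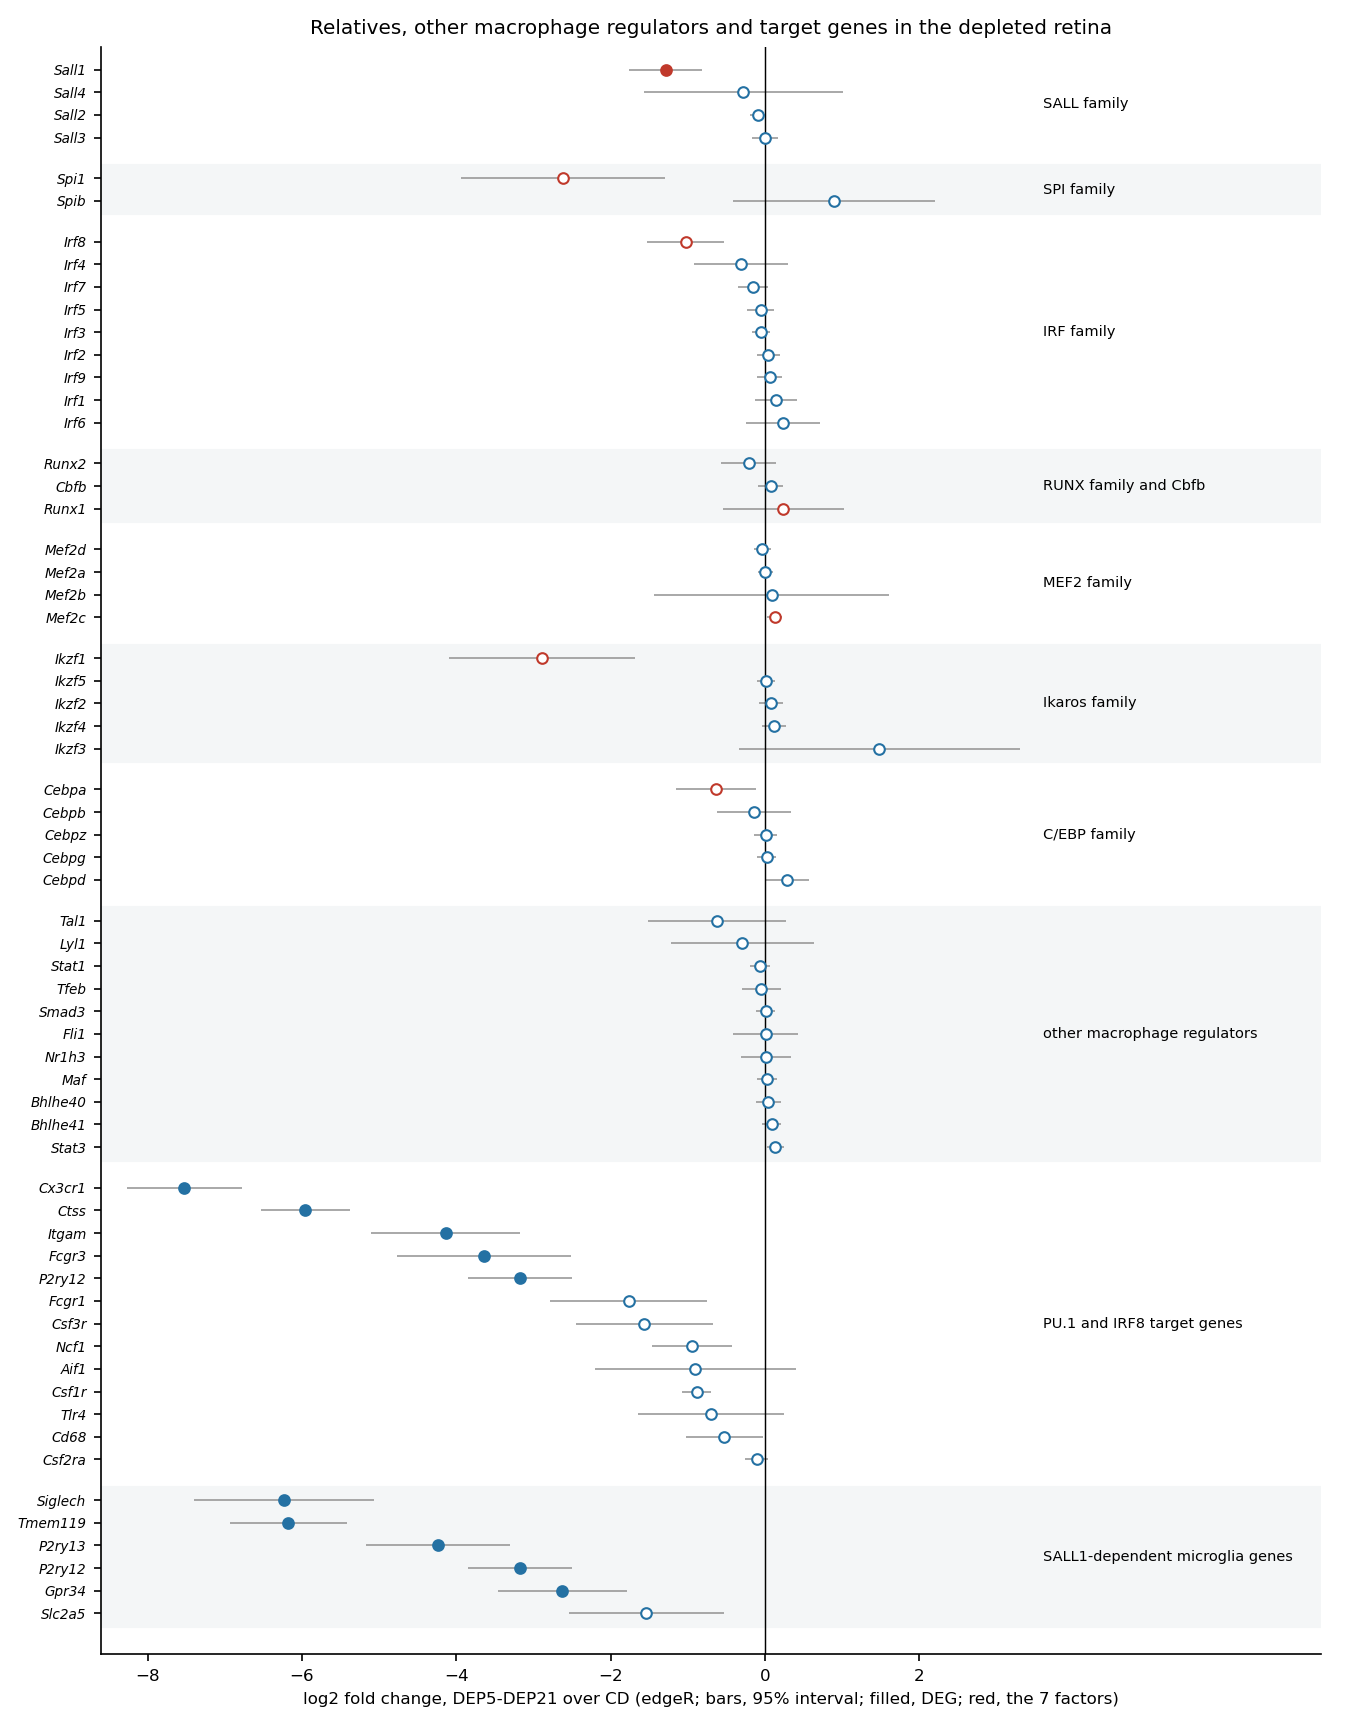
Log2 fold change in depletion (19 mice) against CD (5 mice) by edgeR with its 95% interval for the 7 factors (red), their relatives, other macrophage regulators and target genes, 1 gene per line, with filled points for DEGs. Among the regulators Sall1 was the DEG, the relatives lay between -0.31 and 1.48 with none called, and the target gene Cx3cr1 was at -7.53.

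In early repopulation, REPOP3, REPOP5 and REPOP7 (14 mice) had returned to control diet, and the values of the factors were like those of depletion. Sall1 ranged from 0.356 to 1.3 CPM, with all 14 mice below all CD mice, as for 0.13% of all genes, and a mean of 0.833 ± 0.356 CPM (SD, n = 14), or 44.9% of CD. Spi1 had 3 reads in 14 mice, 11 of which were at 0, and Ikzf1 had 6 reads with 10 mice at 0. Irf8 was at 0.951 ± 0.329 CPM (SD, n = 14), or 46.1% of CD, with 12 of 14 mice below the CD range. By edgeR 0 of 7 members were DEGs, beside 0.113% of all genes, while 4 had an unadjusted p under 0.05, beside 5.95% of all genes, and DESeq2 called 0. Irf8 was the nearest, with a log2 fold change of -1.10 (SE 0.23, edgeR FDR = 0.0315), and Sall1 was at -1.12 (edgeR FDR = 0.0444). Runx1 was at 132%, Mef2c at 101% and Cebpa at 74.9% of the CD mean. The single times gave 0 member DEGs by edgeR and by DESeq2, with 4 members at an unadjusted p under 0.05 in each, against 5.19%, 6.73%, 5.72% and 12.2% of all genes in REPOP3, REPOP5, REPOP7 and REPOP10. Spi1 and Ikzf1 were among the 4 in the pooled and in the single comparisons. They passed the gene filter only through the CD mice there, except Ikzf1 in REPOP5. DEGs made up 0.0377% of genes in REPOP3, 0.0504% in REPOP5, 0.0678% in REPOP7 and 0.0838% in REPOP10, where Sall1 was at -1.51 (SE 0.35, edgeR FDR = 0.0467).

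In late repopulation, REPOP14 and REPOP21 (8 mice), Spi1 rose. The 4 REPOP14 mice had 0.260, 0.129, 0.116 and 0.374 CPM and the 4 REPOP21 mice 0.383, 0.378, 0.769 and 0.376 CPM. Every one of these 8 mice had at least 1 read, 6 of 8 lay above all depleted mice, and the 21 reads amount to 114% of the CD level (exact 95% interval 53.5% to 254%, counting error only). Against DEP5 to DEP21, Spi1 rose by a log2 fold change of 2.71 (SE 0.51, edgeR FDR = 0.00348), the only DEG of the 7, where 43 genes or 0.189% were DEGs. Spi1 passed the gene filter only through the late mice, all 8 of which had a read against 5 of 19 depleted mice. Under filterByExpr it was not tested, and with no gene filter it was a DEG. The exact permutation test gave p = 1.49e-05 in all mice and p = 0.000369 among RE mice. Among RE mice alone the log2 fold change was 2.93 and the FDR 0.0191.

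Ikzf1 had a difference in the same direction that did not pass. The REPOP14 mice had 3, 2, 0 and 0 reads and the REPOP21 mice 3, 4, 1 and 2 reads, or 69.7% of the CD level when pooled (exact 95% interval 31.4% to 156%, counting error only). The log2 fold change against the depleted retina was 2.24 (SE 0.60, edgeR FDR = 0.133). The exact permutation p was 0.00059 in all mice and 0.016 among RE mice. Like Spi1, Ikzf1 passed the gene filter only through the late mice. A read was found in 6 of 8 late mice and in 5 of 19 depleted mice.

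Sall1 and Irf8 were between the depleted and the control level. Sall1 was at 1.56, 0.902, 1.16 and 0.873 CPM in REPOP14 and at 1.92, 0.378, 0.769 and 1.63 CPM in REPOP21, and 7 of these 8 mice were below the CD range. The mean of 1.15 ± 0.516 CPM (SD, n = 8) was 61.9% of CD, 54.6% among RE mice and 85.9% among re mice, and the log2 fold change was 0.63 against depletion (edgeR FDR = 0.446) and -0.65 against CD (edgeR FDR = 0.589). Irf8 was at 1.25 ± 0.415 CPM (SD, n = 8), or 60.5% of CD, with a log2 fold change of 0.30 against depletion (edgeR FDR = 0.733) and -0.70 against CD (edgeR FDR = 0.589). Against CD 0 members were DEGs by edgeR or DESeq2 and 2 had an unadjusted p under 0.05, against 8.31% of all genes, beside DEG shares of 0.0215% of all genes, 0% in REPOP14 alone (818 genes or 3.42% at an unadjusted p under 0.05, 0 DEGs by DESeq2) and 0.0548% in REPOP21 alone. Over the same 8 mice Runx1 was at 130%, Mef2c at 100% and Cebpa at 84.0% of the CD mean.

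Of the gap in Sall1 between the CD mean and the depleted mean, REPOP3 to REPOP7 held 10.9 ± 31.0% (SD, n = 14), REPOP10 -6.83 ± 22.7% (SD, n = 4), REPOP14 and REPOP21 38.4 ± 44.9% (SD, n = 8) and REPOP60 69.8 ± 34.4% (SD, n = 4). The summed microglia list held 3.33 ± 6.33%, 20.2 ± 10.1%, 66.3 ± 10.3% and 76.4 ± 9.69% of its gap in the same groups. On the deposited FPKM scale the REPOP10 value of Sall1 turned positive, near the 15.6 ± 12.4% of the list. In REPOP14 and REPOP21 Sall1 held 22.7 ± 42.8% on that scale, against 71.1 ± 12.5% for the list. Among RE mice Sall1 and the list held 28.7 ± 37.7% and 61.4 ± 10.1% there, and -0.993 ± 28.7% and 21.4 ± 11.4% in REPOP10. The groups also differ in their mix of suffixes, and REPOP60 had only re mice. The difference between Sall1 and the list was not tested.

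After 2 months, in REPOP60, Sall1 was at 1.44, 1.56, 1.04 and 2 CPM, 81.3% of the CD mean with 3 of 4 mice below the CD range. Irf8 was at 0.786, 1.56, 1.17 and 2.40 CPM, 71.7% of CD. Spi1 was at 0, 0.260, 0.519 and 0.399 CPM, 100% of CD. Ikzf1 was at 0.917, 0.260, 0.519 and 0.266 CPM, or 7, 2, 4 and 2 reads. The depleted mice had at most 0.253 CPM, or 2 reads, of Ikzf1. Mef2c was at 164 ± 4.83 CPM (SD, n = 4) and Cebpa at 1.31 ± 0.193 CPM (SD, n = 4). By edgeR 0 members and 0% of all genes were DEGs in REPOP60 against CD, as by DESeq2. At an unadjusted p under 0.05 there were 0 members and 779 genes. All REPOP60 mice carry the suffix re, so that the fit rests on the 2 re mice of CD. Against those mice alone Spi1 was at 228% (log2 fold change 1.08, 95% interval -1.19 to 3.37), Ikzf1 at 187%, Runx1 at 210%, Sall1 at 74.6%, Irf8 at 68.6% and Cebpa at 62.6%.

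**Figure D4:**
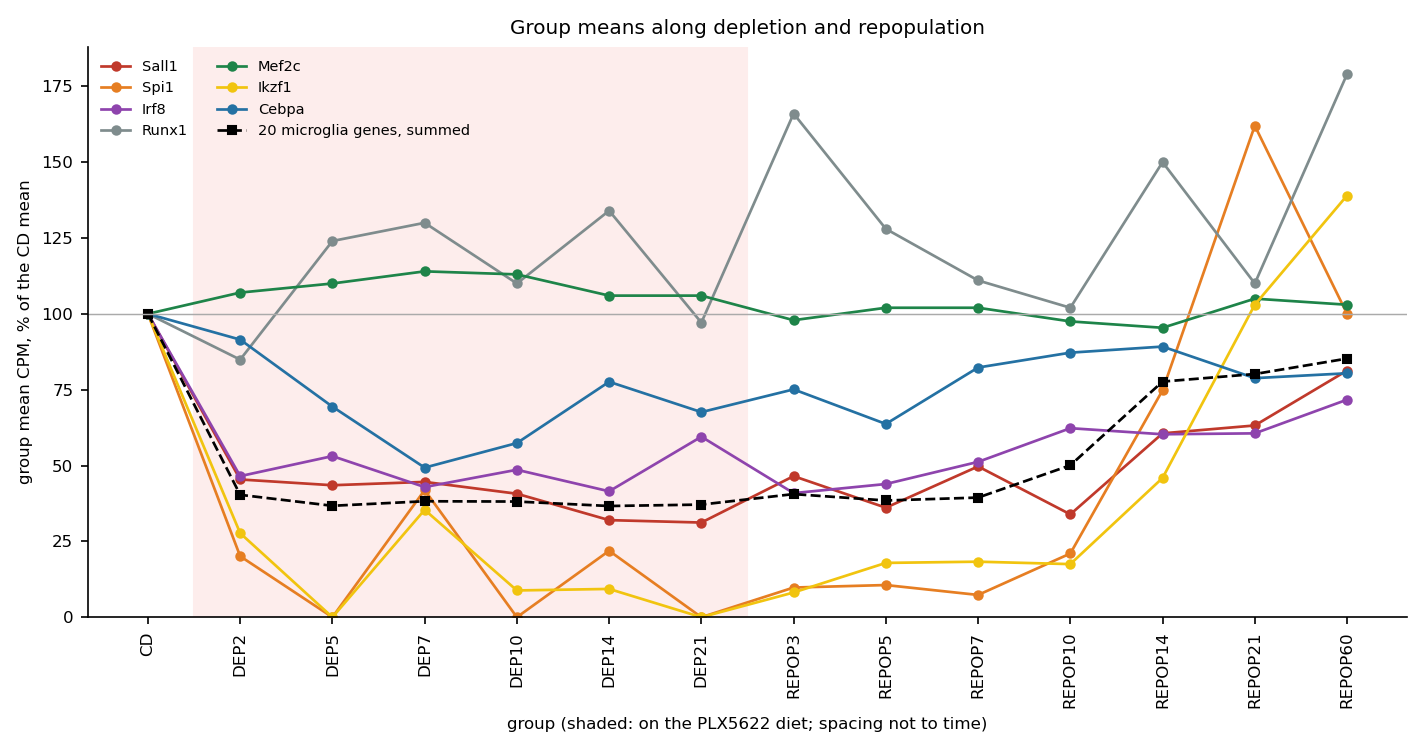
Group mean CPM of each factor as a percent of its CD mean in the order of depletion and repopulation, with the summed CPM of 20 microglia genes (dashed); the shaded groups were on the PLX5622 diet. Spi1 and Ikzf1 were above the CD mean in REPOP21 at 162% and 103%, Sall1 and Irf8 reached 81.3% and 71.7% in REPOP60, and Mef2c stayed near 100% throughout.

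Part of the target genes rose in the same mice. In late repopulation against depletion, where 0.189% of all genes were DEGs, 5 of 14 PU.1 and IRF8 target genes were DEGs by edgeR and higher, namely Cx3cr1 at 6.46 (SE 0.34), Ctss at 5.51 (SE 0.29), Cybb, the NADPH oxidase subunit of phagocytes, at 2.96 (SE 0.41), Itgam at 2.72 (SE 0.55) and P2ry12 at 1.90 (SE 0.34) on the log2 scale. Cybb passed from 0.0733 ± 0.108 CPM in the 5 CD mice and 0.098 ± 0.129 CPM in the 19 depleted mice to 0.883 ± 0.356 CPM in the 8 mice of late repopulation (mean ± SD). Of the 6 SALL1-dependent genes 4 rose, Siglech, Tmem119, P2ry13 and P2ry12. In the microglia list 15 of 20 rose. The lists overlap here too, and of the target genes named as DEGs only Cybb is not in the microglia list. Cx3cr1, Tmem119 and Siglech passed the gene filter only through the mice of late repopulation. Tmem119 was at 48.2%, Cx3cr1 at 50.4%, Siglech at 47.2% and Ctss at 81.6% of the CD mean in these 8 mice. Relatives and other regulators again gave 0 DEGs by edgeR, with 4 relatives and 1 other regulator at an unadjusted p under 0.05, beside 8.7% of all genes.

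LPS, a bacterial cell wall component that activates microglia, was followed by higher values of several factors, none of which passed. Spi1 was at 1.29, 0.891 and 2.13 CPM in the 3 LPSCD mice, against at most 0.705 CPM in CD. Ikzf1 was at 1.29, 1.65 and 0.752 CPM, against at most 0.645 CPM in CD. Runx1 was at 1.42, 1.65 and 1.76 CPM, against at most 1.06 CPM in CD. For these 3 factors all LPSCD mice lay above all CD mice, as for 6.43% of all genes tested. The mean ± SD was 1.44 ± 0.634 CPM for Spi1, 1.23 ± 0.454 CPM for Ikzf1 and 1.61 ± 0.172 CPM for Runx1 (n = 3). Log2 fold changes were 3.31 (SE 0.90, edgeR FDR = 0.235), 2.17 (edgeR FDR = 0.326) and 1.59 (edgeR FDR = 0.457). The exact permutation p was 0.0179 for Spi1 and for Ikzf1, the smallest that 3 against 5 mice allow. This test and the overlaps use all CD mice and leave the title suffix out of account.

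Cebpa was at 2.84, 2.29 and 4.39 CPM and Irf8 at 2.32, 2.67 and 3.64 CPM in LPSCD, and each overlapped CD in 1 of 3 mice. Sall1 was at 3.23, 2.54 and 1.63 CPM, on either side of the CD mice. Mef2c was at 157, 145 and 118 CPM, with 2 of 3 mice below the CD range. By edgeR with the suffix as a covariate 0 of 7 members and 0% of all genes were DEGs, with 3 members and 2486 genes, or 10.5%, at an unadjusted p under 0.05. All LPSCD mice carry the suffix re, so that this fit and its log2 fold changes rest on the 2 re mice of CD. DESeq2 called 21 genes and 0 members, and a fit of all 16 groups gave 237 DEGs and called Spi1, as did a fit with no gene filter. The smallest FDR in the families was that of Irf7 at 15.1 CPM in CD and 50.7 CPM in LPSCD (log2 fold change 1.495, SE 0.35, edgeR FDR = 0.179), followed by Cebpd at 7.35 and 25.9 CPM (1.78, SE 0.57, edgeR FDR = 0.308).

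In LPSREPOP the factors lay between REPOP60 and LPSCD or near them. Spi1 was at 0.918, 0.644, 1.52 and 0.512 CPM, Cebpa at 1.44, 3.74, 2.28 and 1.92 CPM and Irf8 at 1.84, 2.96, 2.28 and 1.66 CPM. Ikzf1 was at 0.610 ± 0.189 CPM, Runx1 at 1.06 ± 0.233 CPM, Sall1 at 1.78 ± 0.673 CPM and Mef2c at 167 ± 9.18 CPM (SD, n = 4). Against LPSCD 0 members and 0% of all genes were DEGs by edgeR, as by DESeq2, and 2 members and 1973 genes, or 8.05%, had an unadjusted p under 0.05. Mef2c was higher in all 4 LPSREPOP mice than in any LPSCD mouse (log2 fold change 0.26, exact permutation p = 0.0286), as were 3.46% of all genes, and Runx1 was lower in all 4, as were 2.97%. Against REPOP60 109 genes or 0.437% were DEGs, which fell to 8, 17 and 5 genes without replicate 1, 2 or 3. Of the members 0 were DEGs, with 2 at an unadjusted p under 0.05 beside 14% of all genes. The time of repopulation of LPSREPOP is not given, so LPS and that time cannot be told apart in this comparison. There Spi1 was at 1.56 (SE 0.58, edgeR FDR = 0.177) and Cebpa at 0.83 (SE 0.31, edgeR FDR = 0.183) on the log2 scale, with an exact permutation p of 0.0571 for each. The target genes Fcgr3 at 2.04, Cybb at 2.29 and Ctss at 1.17 were DEGs in that comparison and higher, as were the neutrophil genes S100a8, at 0 in all REPOP60 mice, and S100a9. Monocyte and neutrophil markers, which come from cells that also express Spi1 and Cebpa, summed to 0 to 4.77 CPM in CD, 1.38 to 3.36 CPM in LPSCD, 0.130 to 0.399 CPM in REPOP60 and 0.768 to 9.36 CPM in LPSREPOP, and their part in the LPS values was not tested. Of these 8 markers 3 were at 0 in all CD mice, 1 in all LPSCD mice and 4 in all REPOP60 mice.

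Over the 16 group means, the order of levels was led by LPSCD and CD for Sall1 and closed by DEP14 and DEP21. Neighbours in the order differed by less than the larger of their SDs in 15 of 15 pairs for Sall1, Mef2c and Cebpa, in 14 for Irf8 and Runx1 and in 13 for Spi1 and Ikzf1. As a description across groups, which differ in their mix of suffixes, the log2 group means of Spi1, Ikzf1, Sall1 and Irf8 correlated with those of the summed microglia list at Pearson r = 0.949, 0.951, 0.94 and 0.928. For Cebpa r was 0.847, for Runx1 0.629 and for Mef2c -0.609. The list had its highest means in LPSCD and LPSREPOP, 153.5 and 113.7 CPM against 83.05 CPM in CD. LPSCD was also the highest group for every factor but Mef2c, so r does not describe depletion and repopulation alone.

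Among 17431 genes with at least 0.5 CPM in CD, the genes most alike in pattern over the 16 group means were Cmklr1, Prima1 and Cd33 for Sall1 (r = 0.944, 0.939 and 0.935), Ptgs1, Fcgr3 and Gm9925 for Spi1 (0.977, 0.963 and 0.959) and Itgam, Csf1r and Fcgr3 for Irf8 (0.955, 0.939 and 0.936). For Ikzf1 they were Ptgs1, Cd33 and Itgam (0.97, 0.963 and 0.954). Cd33 is a lectin and Ptgs1 a cyclooxygenase of myeloid cells. Among the RE mice of 13 groups r was 0.755 for Cmklr1, 0.403 for Prima1 and 0.778 for Cd33 with Sall1, and 0.888, 0.911 and 0.302 for the 3 genes named with Spi1. The genes named for the other factors were Bola2, Rassf7 and A230087F16Rik for Runx1 (0.9, 0.896 and 0.888), Hdx, Tctex1d2 and Ralgapa2 for Mef2c (0.897, 0.87 and 0.87) and Chst2, Csf1 and Smox for Cebpa (0.932, 0.93 and 0.93), none of which is in the microglia list. Among RE mice r was 0.556, 0.579 and 0.704 for those of Runx1, 0.77, 0.71 and 0.808 for those of Mef2c and 0.588, 0.521 and 0.761 for those of Cebpa. For Irf8 it was 0.852, 0.773 and 0.706 and for Ikzf1 0.832, 0.771 and 0.847.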

How the data were processed

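Total RNA of whole retinas was extracted with TriPure and sequenced in single-end reads of 50 bases on the BGISEQ-500. The labels give poly-A selection, and the study's methods name it beside removal of ribosomal RNA without saying which was used. According to the study's methods, the authors removed adaptors and low quality reads, aligned the rest to mm10 with HISAT2, counted them per gene with HTSeq and estimated FPKM with StringTie. Versions, annotation release and strand setting are not given in the sources used here. The deposited counts are raw whole numbers per gene and mouse. The FPKM values deposited by the authors are scaled to library size and transcript length and were used here only to compare levels between genes and as an alternative scale. A header line repeated within the FPKM table was dropped.

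From the counts, CPM were computed with TMM library sizes, and edgeR's quasi-likelihood test (edgeR 4.0.16, limma 3.58.1, R 4.3.3) was fitted to all genes in 20 comparisons, with FDR by Benjamini-Hochberg over all genes tested. A gene was tested if at least 0.5 of the mice of either group had a count of at least 1. The limits for a DEG were 0.01 for the FDR and 1 for the absolute log2 fold change. The study's methods state an additive batch term without naming the batches, so the title suffix (RE or re) served as covariate, except in the comparisons of LPSREPOP, which hold re mice only. Groups came from the labels. Pooled groups were described by their CPM per mouse, pooled reads by an exact 95% interval of the ratio to CD with a floor of 3 reads, and single members by two-sided exact permutation tests of mean CPM, 77 in all and not adjusted (scipy 1.17.1, numpy 2.4.6, pandas 2.3.3, Python 3.11.15, matplotlib 3.10.9).

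All 7 members are named. Genes of the other lists are named where they were DEGs, or else by the 2 smallest FDRs of a list, and Sall3, Runx2, Cbfb, Maf, Csf1r, Slc2a5, Spib, the macrophage markers and genes that make up a summed list were added after their values were seen. Some genes that count in a list are not reported or drawn singly here. Likeness was Pearson's r of log2(CPM + 0.5) group means among genes with at least 0.5 CPM in CD. The members and lists were chosen with earlier results of these data known. The permutation tests and the fits without REPOP21 replicate 1, the library with the lowest total, were chosen after seeing the data. Alternatives were no suffix term, RLE library sizes, filterByExpr, no gene filter, DESeq2 1.42.0, 1 fit of all 16 groups, the replicate block, RE mice only, FPKM and leaving out mice. The fitting code was tested on simulated data. Pairs of replicates differed by more than sampling noise, with a smallest chi-square of 1.36 per degree of freedom. Promoter sequences are those of RefSeq on GRCm38.p6.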

Additional observations from a re-analysis of the deposited data

Results flagged for a closer look

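In 13 of 95 checks of a member in a group of 4 to 10 mice, 1 mouse stood apart from the others of its group by Dixon's criterion. In 9 of the 13 all other mice of the group were at 0, so that a single mouse with a read met the criterion by construction, and the rate of about 1 in 20 groups that chance gives applies only to the other 4. For Spi1, a single mouse held reads while all others of its group were at 0 in REPOP3 (replicate 4, 0.115 CPM), REPOP5 (replicate 4, 0.124 CPM), REPOP7 (replicate 2, 0.129 CPM) and REPOP10 (replicate 4, 0.246 CPM). The same held for Ikzf1 in DEP10 (replicate 4, 0.124 CPM), DEP14 (replicate 3, 0.131 CPM), REPOP3 (replicate 4, 0.115 CPM), REPOP7 (replicate 1, 0.387 CPM) and REPOP10 (replicate 4, 0.246 CPM). Each of these 9 values stands for 1 to 3 reads. REPOP21 replicate 3 had Spi1 at 0.77 CPM, above the other 3 mice of the group. Irf8 in DEP7 replicate 3 was at 2.3 CPM, within the range of the CD mice, and the other 3 mice were at or below 0.484 CPM. Mef2c was at 163 CPM in REPOP10 replicate 1 and at 188 CPM in REPOP21 replicate 2, both above the others of their groups.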

How the results depend on the processing

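All 7 members were followed in the pooled and LPS comparisons, but only Sall1 and Irf8 in the single groups from DEP2 to REPOP60 against CD. Values kept their direction and side of the threshold in 833 of 860 comparisons with an alternative. Of the others, 8 passed newly, 5 no longer passed and 14 changed sign. The cause was not tested. The number of members called in depletion against CD was 2 with no gene filter (Sall1 and Ikzf1), 3 with all 16 groups in 1 fit (Sall1, Spi1 and Ikzf1), 0 among RE mice alone and 0 to 1 when a CD mouse was left out, and without CD replicate 4 the member called was Ikzf1 and not Sall1. In late repopulation against depletion it was 0 with filterByExpr and 0 among RE mice, and still 1 without REPOP21 replicate 1. With no gene filter it was 1 in DEP21, 1 in REPOP10 (Sall1 in both) and 1 in LPSCD (Spi1), as it was 1 in LPSCD with all 16 groups in 1 fit. As a percent of CD, Runx1 in late repopulation was at 76.9 and Mef2c in depletion at 94.1 on the FPKM scale, and Cebpa in late repopulation at 106 among RE mice.

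Log2 fold changes turned their sign among RE mice alone for Mef2c in early repopulation (-0.017) and for Spi1 (-0.193) and Cebpa (0.076) in late repopulation against CD, and for Spi1 there without REPOP21 replicate 1 (-0.026). With mice left out, Runx1 in depletion ranged from -0.06 to 0.482, Mef2c in early repopulation from -0.002 to 0.034, and in late repopulation against CD Spi1 from -0.208 to 0.697, Mef2c from -0.021 to 0.018 and Ikzf1 from -0.675 to 0.007. For LPSREPOP against REPOP60 the ranges were -0.079 to 0.417 for Sall1, -0.287 to 0.15 for Runx1, -0.002 to 0.052 for Mef2c and -0.033 to 0.84 for Ikzf1. None of these was called in the comparison as reported.

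Replicate numbers are shared between groups, but with the suffix removed the correlation of same-numbered mice ranged from -0.501 to 0.579 and no comparison had every pair over 0.1, so the numbers were not taken as pairs. With the replicate block 0 members were called in each single-group comparison, as without it, while DEGs over all genes went from 8 to 14 in DEP5, from 15 to 44 in DEP7, from 14 to 33 in DEP10, from 10 to 22 in DEP14, from 9 to 15 in REPOP3, from 13 to 25 in REPOP21, from 0 to 2 in REPOP14, from 0 to 62 in REPOP60, from 0 to 96 in LPSCD and from 16 to 7 in REPOP7. DEGs over all genes also moved from 41 to 11 in depletion, from 26 to 10 in early repopulation and from 43 to 6 in late repopulation against depletion with filterByExpr, and from 26 to 14 and from 43 to 26 in the last 2 among RE mice. For late repopulation against CD they were 5 as reported, 28 with no gene filter, 2 with filterByExpr, 1 with DESeq2, 1 with all 16 groups in 1 fit and 0 with no suffix term. In LPSCD the 0 DEGs became 39 with no suffix term, 2 with RLE, 188 with no gene filter, 21 with DESeq2 and 237 with all 16 groups in 1 fit, and against LPSCD the 0 DEGs of LPSREPOP became 1 with no gene filter and 18 with all 16 groups in 1 fit. With no gene filter the single groups from DEP2 to REPOP60 had 4 to 65 DEGs against CD, and 0 to 21 as reported. Against REPOP60 the 109 DEGs of LPSREPOP became 68 with filterByExpr and 179 with no gene filter, and 8, 17, 5 and 88 without replicate 1, 2, 3 or 4. Without replicate 2, 3 or 4 each single depletion time had 0 to 3 DEGs against CD, against 8 to 21 as reported. With CD mice left out, depletion had 25 to 37 DEGs and late repopulation against CD 0 to 8. Spi1, Ikzf1 and Runx1, at a few reads per library, are limited by depth.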
